A study of Sus scrofa with 6 samples.

Results

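Deoxynucleotide supply enzymes make, convert and remove the deoxynucleoside triphosphates (dNTPs) from which DNA is built. The group as defined here held 9 genes, namely RRM1, RRM2, RRM2B, TYMS, TK1, DUT, DCTPP1, DCK and SAMHD1, taken by gene name from the deposited expression table, or by gene description where the name was blank. Of these, 8 were matched among the 31908 gene IDs of the table. RRM2 (ENSSSCG00000031741) was matched by its description, and DCK, the deoxycytidine salvage kinase, was not matched and was not analysed here.

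The values came from IPEC-J2 cells, a non-transformed epithelial line from the jejunum of newborn pigs, used at passages 12 to 15. The CON group was treated with PBS and the CDCA group with 50 μM chenodeoxycholic acid, a primary bile acid, each for 24 h, and each group had 3 libraries of total RNA. Both groups were the same unmodified line. The comparison asks how CDCA treatment changed the transcriptome of these cells in a study of their proliferation. The study calls the libraries of a group biological replicates, and the sources used here do not say whether they came from separate cultures, so p-values measure the spread between these libraries, which may be technical.

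Ribonucleotide reductase takes ribonucleoside diphosphates to their deoxy forms, and is built from a large catalytic subunit, RRM1, with a small radical-bearing subunit, which is either RRM2 in dividing cells or RRM2B, a p53-inducible paralog that also serves cells outside S phase. Thymidylate is then made by TYMS from dUMP, which DUT supplies by hydrolysing dUTP, or by TK1, which phosphorylates thymidine taken up from outside the cell. DCTPP1 and SAMHD1 work against accumulation: DCTPP1 hydrolyses dCTP and its modified forms, and SAMHD1 cleaves dNTPs back to nucleosides. Transcripts of RRM1, RRM2, TYMS, TK1 and DUT are known to follow the cell cycle, with high levels around S phase.

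The levels are TPM (transcript abundance scaled to the library total and per transcript length) as deposited, summed over the listed transcripts of a gene. All TPM of a library add up to 1000000 by definition, whereas the listed values added up to between 351770 and 366073 TPM per library. Transcripts that are not listed could thus hold the rest, and gene sums and comparisons of levels between genes cover listed transcripts only. Read numbers are not part of the table. Messenger RNAs encoded by mitochondrial DNA held between 13.8% and 15.03% of the listed sum in CON, and between 2.90% and 3.45% in CDCA. This moves the scale of all other genes, so limma results for tested genes and lists were also computed with totals leaving these mRNAs out. That scaling took the median log2 fold change of all tested genes from 0.047 to -0.083. Of 9 matched epithelial markers, KRT8, KRT18, EPCAM, CLDN4 and ELF3 were above 1 TPM, whereas CDH1, VIL1, CLDN7 and CDX2 had means under 1 TPM. The epithelial markers summed to 639 to 666 TPM in CON and 1216 to 1350 TPM in CDCA, mostly through CLDN4, with means of 225 and 806 TPM, whereas KRT8 had means of 226 and 208 TPM. Fibroblast markers summed to 1.00 to 1.83 TPM over the 6 libraries and endothelial markers to 1.96 to 2.80 TPM. Immune markers summed to 26.0 to 32.7 TPM, mostly LYZ (CON and CDCA means of 19.1 and 17.1 TPM). AIF1 had means of 5.89 and 6.89 TPM, CD79A of 2.29 and 3.24 TPM and CD14 of 0.997 and 1.48 TPM. CD3E had means of 0.660 and 0.447 TPM, while PTPRC, the pan-leukocyte marker, had means of 0 and 0.00333 TPM.

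CDCA-treated cells carried less mRNA for most of the deoxynucleotide supply enzymes that could be tested. TK1 and RRM2 fell to 15.9% and 17.5% of their CON means, RRM1 and TYMS to 36.8% and 38.7%, and DUT and DCTPP1 to 57.9% and 69.8%. RRM2B, the other small subunit, did not pass the test and had the only fold change above 0. The 8708 genes that averaged 1 TPM or more across the 6 libraries were tested with limma on the log2(TPM + 1) scale, and the FDR was taken over all of them by the Benjamini-Hochberg method. "Fell" and "rose" are used here where the FDR was under 0.05, and a gene was called where the log2 fold change was also over 1 in size. Of the 8 matched members 7 passed the filter, each with a mean over 1 TPM in both groups, and SAMHD1 did not. Of these 7, 4 were called lower, against 3.90% of all tested genes, and 6 fell, against 23.9% of all tested genes. By limma none was called higher, against 3.51% of all tested genes, none rose, against 29.3%, and none had an unadjusted p under 0.05 in that direction. The groups of libraries did not overlap, with CDCA lower, for 6 of the 7, against 27.8% of all tested genes, and for none of them with CDCA higher, against 33.7%. In these bulk samples, fewer cells in S phase and less RNA per cell cannot be told apart. At the same dose and time, the study's flow cytometry gave a lower share of cells in S and G2/M phases. Its EdU staining gave a higher share of proliferating cells. How these assays relate to the mRNA levels was not tested.

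**Figure D1:**
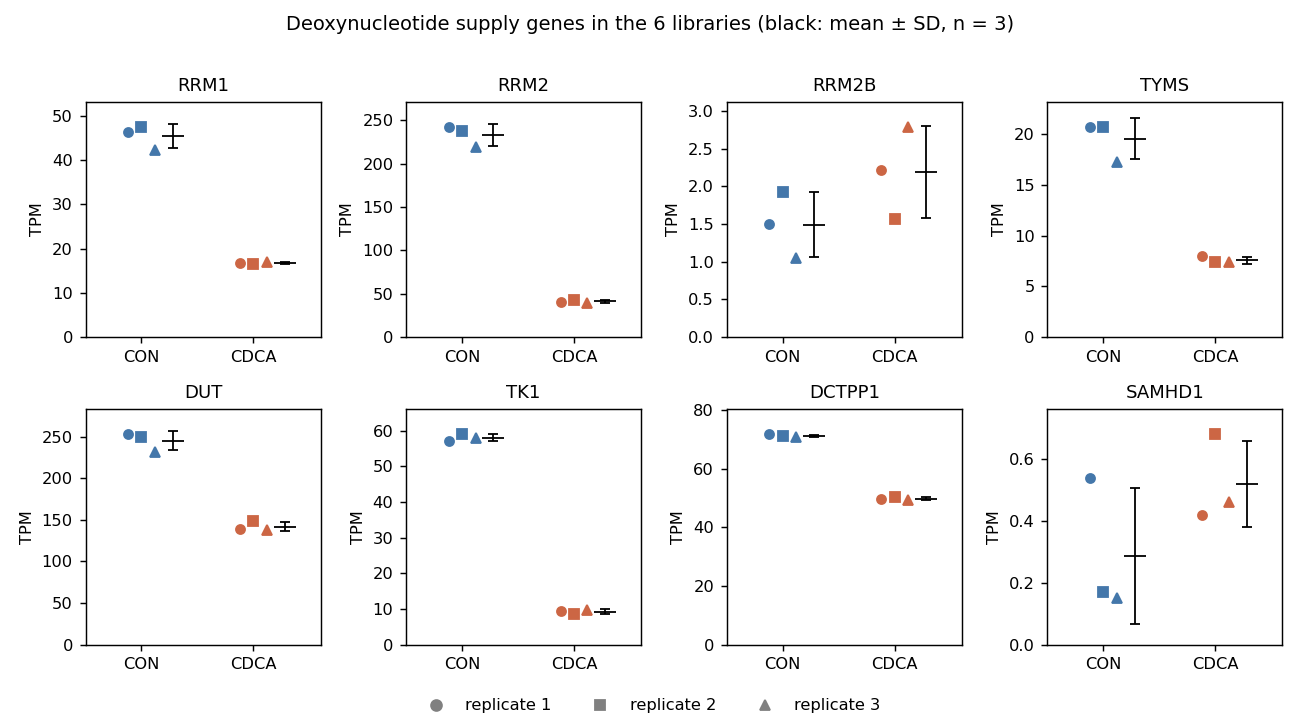
TPM of each matched gene (vertical axis, from 0) in the 3 CON and 3 CDCA libraries, with the mean ± SD (n = 3) in black beside the points. The CDCA points lie below all CON points for RRM1, RRM2, TYMS, DUT, TK1 and DCTPP1, while the groups overlap for RRM2B and SAMHD1.

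For RRM2, the small subunit of dividing cells, CON replicates 1 to 3 gave 242, 238 and 219 TPM, and CDCA replicates 1 to 3 gave 40.7, 42.5 and 39.5 TPM. Every CDCA library lay far below every CON library, and the spread within a group was small beside the gap. The CON mean of 233 ± 12 TPM (SD, n = 3) stood against a CDCA mean of 40.9 ± 1.5 TPM (SD, n = 3), which is a log2 fold change of -2.48 with an SE of 0.05 and an FDR of 1.8e-06 by limma.

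RRM1 (ENSSSCG00000014791), the catalytic subunit that pairs with either small subunit, had 46.5, 47.5 and 42.4 TPM in the control libraries and 16.7, 16.5 and 16.9 TPM in the treated libraries. The 3 CDCA values were almost the same, and the lowest CON library was well above them. On the log2 scale RRM1 fell by 1.39, with an SE of 0.05 and an FDR of 7.9e-06 by limma.

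RRM2B (ENSSSCG00000036139) was low by its listed transcripts, with 1.5, 1.92 and 1.05 TPM in the control libraries and 2.22, 1.57 and 2.79 TPM in the treated ones. CDCA replicate 2 lay below CON replicate 2, so the groups overlapped. The log2 fold change was 0.36 (95% interval -0.11 to 0.82, limma FDR 0.16), and over 13 alternative settings it lay between 0.22 and 0.53 with FDR between 0.074 and 0.40. The interval includes both a moderate rise and no change. RRM2 and RRM2B are paralogs, and how reads that could come from both were assigned was not tested.

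Set against each other within a library, where scaling cancels, the small subunits stood in a different balance in the treated cells. There were 161.6, 124.0 and 208.7 TPM of RRM2 for each TPM of RRM2B in CON replicates 1 to 3, and 18.3, 27.1 and 14.1 in CDCA replicates 1 to 3. The groups did not overlap, and the ratio was 8.42-fold lower in CDCA (p = 0.1 by a two-sided exact permutation test, the floor for 3 libraries against 3). RRM2B thus made up 0.631% ± 0.16 (SD, n = 3) of the listed small-subunit TPM in the controls and 5.11% ± 1.5 (SD, n = 3) after CDCA. RRM2 held most of the listed small-subunit TPM in every library. Transcripts that are not listed could change these shares. Over the same libraries the summed TPM of both small subunits went from 235 ± 13 (SD, n = 3) to 43.1 ± 0.91 (SD, n = 3), while RRM2B itself did not pass the test.

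RRM2 also fell further than RRM1. Each TPM of RRM1 was accompanied by 5.22, 5.01 and 5.17 TPM of RRM2 in the control libraries, and by 2.43, 2.58 and 2.33 TPM in the treated ones. The libraries of a group lay close together, and the ratio was 2.10-fold lower in CDCA with no overlap (two-sided exact permutation p = 0.1, the floor). Leaving out any 1 library, the log2 change of this ratio stayed between -1.11 and -1.04.

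**Figure D2:**
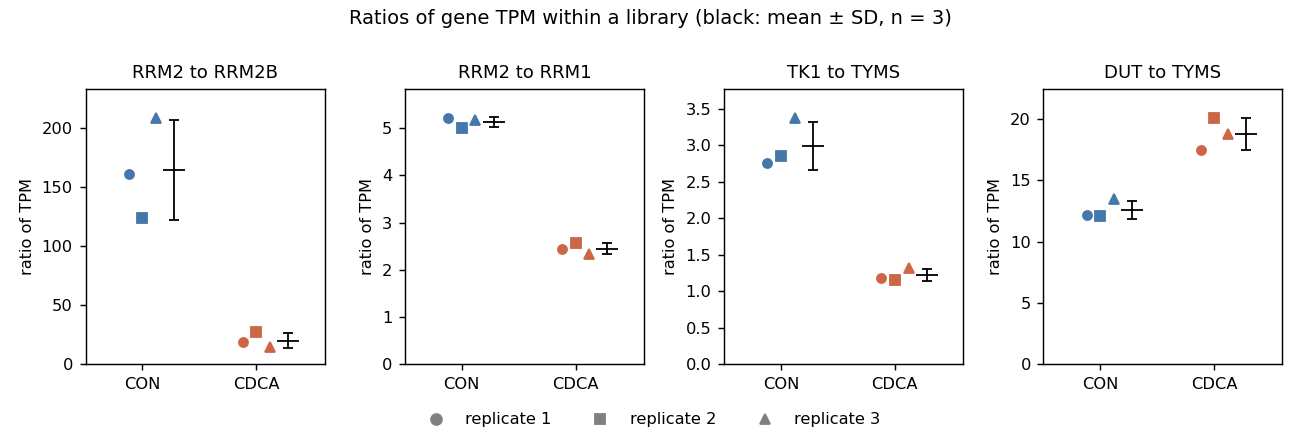
Ratio of the TPM of a pair of genes within each library (vertical axis, from 0) in CON and CDCA, with the mean ± SD (n = 3) in black. The groups do not overlap in any panel: RRM2 to RRM2B, RRM2 to RRM1 and TK1 to TYMS are lower in CDCA and DUT to TYMS is higher.

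TYMS (ENSSSCG00000040678), which makes thymidylate from dUMP, had 20.7, 20.7 and 17.2 TPM in the control libraries against 7.97, 7.38 and 7.34 TPM under CDCA. CON replicate 3 was the lowest of its group and still above the CDCA libraries by a wide margin. TYMS fell by 1.26 on the log2 scale (SE of 0.08 and FDR of 5.4e-05 by limma). In the human genome TYMS overlaps ENOSF1 on the other strand, and the strand setting of the counting is not given in the sources used here, so reads of an overlapping gene could be part of this value.

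TK1 (ENSSSCG00000037120), the salvage route to the same product, had the largest fall of the tested members by gene sum, though not by the most abundant transcript alone (-2.19 on the log2 scale, beside -2.53 for RRM2) or without CDCA replicate 2 (-2.48, beside -2.51 for RRM2). The control libraries held 57.2, 59.0 and 58.1 TPM, the treated ones 9.45, 8.54 and 9.70 TPM. Both groups were tight and lay far apart. Limma gave a log2 fold change of -2.53, with an SE of 0.06 and an FDR of 2.2e-06. Ordered by log2 fold change among the 8708 tested genes, TK1 was the gene of rank 12 and RRM2 of rank 13 from the largest fall, with RRM1 at rank 159 and TYMS at rank 231.

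The salvage and the de novo enzyme did not fall in step. There were 2.76, 2.85 and 3.37 TPM of TK1 for each TPM of TYMS in CON and 1.19, 1.16 and 1.32 in CDCA, a ratio 2.45-fold lower (two-sided exact permutation p = 0.1, the floor). This pair was compared after the values were seen, in place of TK1 and DCK.

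DUT (ENSSSCG00000032141) was among the most abundant of the members, and its TPM of 253, 250.2 and 232 in the controls compared with 139, 148 and 138 after CDCA. The groups were well apart, although the fall was smaller than that of TYMS. DUT fell by 0.78 on the log2 scale (SE of 0.05 and FDR of 4.1e-05 by limma), too little for a call, and of 13 alternatives it was called in 1, at -1.01, when its most abundant transcript alone was used. Per TPM of TYMS there were 12.2, 12.1 and 13.5 TPM of DUT in the controls and 17.5, 20.1 and 18.8 TPM after CDCA, so that this ratio was 1.49-fold higher with no overlap (two-sided exact permutation p = 0.1, the floor).

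DCTPP1 (ENSSSCG00000007795), with 1 listed transcript, was the steadiest member. Controls showed 71.8, 71.2 and 71.0 TPM, and treated cells 49.6, 50.3 and 49.5 TPM. The libraries of a group differed by less than 1 TPM, so that its modest fall stood clear of the spread (log2 fold change -0.51, SE 0.03, limma FDR 4.8e-05), though it was not called.

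SAMHD1 (ENSSSCG00000027806), the dNTP-cleaving enzyme, was close to the lower end of the table, with 0.54, 0.17 and 0.15 TPM in the controls and 0.42, 0.68 and 0.46 TPM in the treated libraries. CON replicate 1 lay within the CDCA range, and the gene was not tested in the main comparison. With no filter on low values its log2 fold change was 0.25 (95% interval -0.09 to 0.59, limma FDR 0.30), so no change was detectable at this level.

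**Figure D3:**
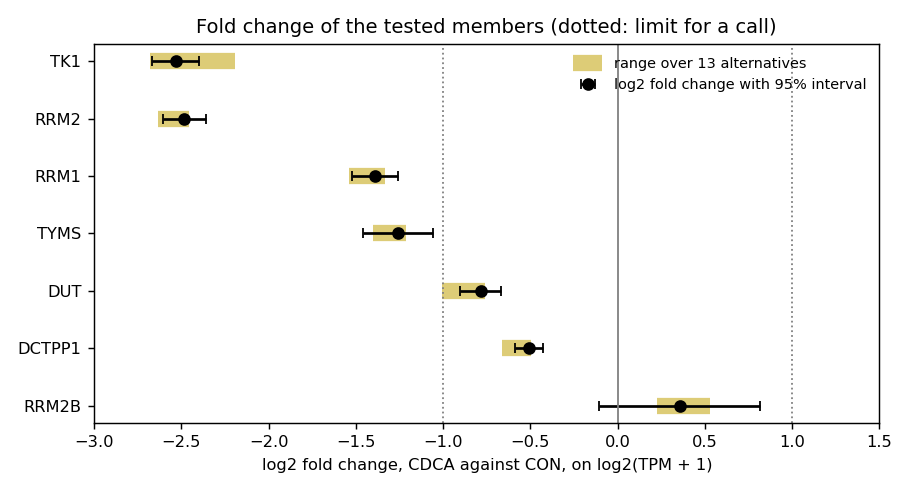
Log2 fold change on log2(TPM + 1) of CDCA against CON for the 7 tested members (horizontal axis), with limma's 95% interval as black bars and the range over 13 alternative settings as pale bands. The values run from -2.53 for TK1 to 0.36 for RRM2B, whose interval is the only one that crosses 0, and TK1, RRM2, RRM1 and TYMS stay beyond the dotted limit of -1.

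The order of the levels changed with treatment. In CON, DUT (mean 245 TPM) and RRM2 (233 TPM) led with overlapping ranges, followed by DCTPP1 (71.3 TPM), TK1 (58.1 TPM), RRM1 (45.4 TPM), TYMS (19.5 TPM), RRM2B (1.49 TPM) and SAMHD1 (0.287 TPM). All other neighbours in this order had ranges that did not overlap. In CDCA, DUT (142 TPM) led alone, DCTPP1 (49.8 TPM) stood above RRM2 (40.9 TPM), and RRM1 (16.7 TPM) stood above TK1 (9.23 TPM), with TYMS (7.56 TPM), RRM2B (2.19 TPM) and SAMHD1 (0.520 TPM) after them. No neighbours overlapped in CDCA.

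The table lists several transcripts for most of these genes, without transcript IDs, so they are named here by their rank in mean TPM. RRM1, RRM2, TK1 and DUT each had a pair of transcripts that held nearly all of the gene's TPM. Both transcripts were lower in CDCA in each case: the ratios of CDCA to CON mean were 0.376 and 0.349 for RRM1, 0.169 and 0.194 for RRM2, 0.195 and 0.116 for TK1, and 0.496 and 0.686 for DUT.

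For DUT, whose human gene is known to give a nuclear and a mitochondrial enzyme, the balance of its transcripts also moved. The transcript of rank 1 had 157, 150.3 and 148 TPM in CON and 70.6, 83.0 and 72.1 TPM in CDCA, and that of rank 2 had 92.2, 94.9 and 79.4 TPM in CON and 64.0, 58.6 and 60.1 TPM in CDCA. Their ratio was 1.70, 1.58 and 1.86 in CON against 1.10, 1.41 and 1.20 in CDCA, with no overlap (two-sided exact permutation p = 0.1, the floor). Which enzyme each transcript encodes could not be read from the table.

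The transcripts of TK1 moved apart in the other direction. That of rank 1 had 30.6, 30.9 and 33.2 TPM in CON and 6.56, 5.23 and 6.69 TPM in CDCA, and that of rank 2 had 26.6, 28.2 and 24.9 TPM in CON and 2.89, 3.31 and 3.01 TPM in CDCA. The ratio went from 1.15, 1.10 and 1.34 to 2.27, 1.58 and 2.22, again with no overlap (two-sided exact permutation p = 0.1, the floor). The same ratio overlapped between the groups for RRM1 (p = 0.3) and RRM2 (p = 0.2) in the same exact permutation test. These 4 ratios of transcripts were compared after the values were seen, and over all 8 ratios compared the Benjamini-Hochberg adjusted p was 0.13 for each that did not overlap. RRM2B, TYMS, DCTPP1 and SAMHD1 had at least 85.3% of their mean TPM in 1 transcript in both groups.

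**Figure D4:**
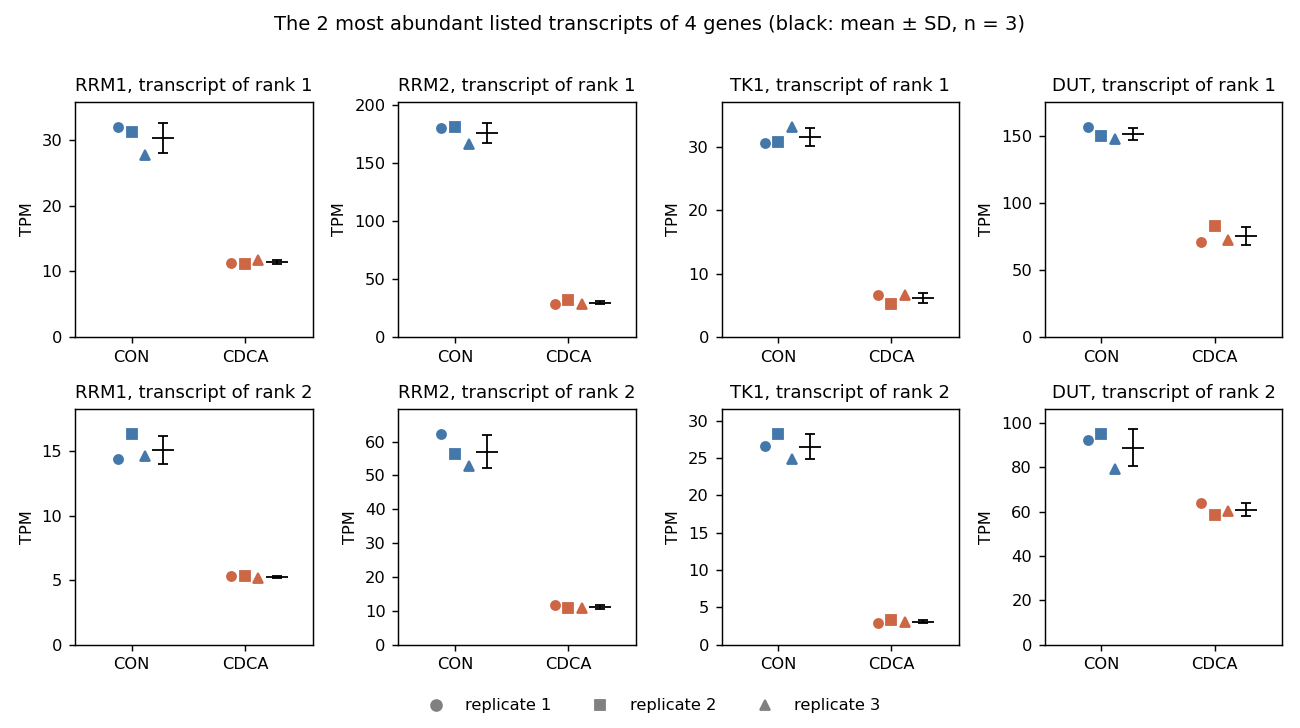
TPM of the transcripts of rank 1 (top) and rank 2 (bottom) of RRM1, RRM2, TK1 and DUT in the 3 CON and 3 CDCA libraries, with the mean ± SD (n = 3) in black and vertical axes from 0. All 8 transcripts are lower in CDCA without overlap, and the fall of DUT is larger in rank 1 whereas that of TK1 is larger in rank 2.

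Genes of the steps around these enzymes were taken list by list, to be read beside the 23.9% of all tested genes that fell and the 29.3% that rose, and differences between lists were not tested. Among 12 tested genes of precursor nucleotide synthesis, which make the ribonucleotides that ribonucleotide reductase uses, 7 fell and 1 rose, at a median of -0.23 on the log2 scale (-0.37 with the mitochondrial mRNAs left out of the totals) beside 0.047 for all tested genes. Of these 7 falls, 4 passed in all 13 alternatives. UMPS, which makes UMP, had the largest fall of this list (9.42 ± 0.44 to 4.58 ± 0.14 TPM, log2 fold change -0.90, limma FDR 7.3e-05), and was called at -1.03 with totals that leave out the mitochondrial mRNAs and at -1.02 with a pseudocount of 0.1 TPM. CTPS2, a CTP synthase, had the largest rise (log2 fold change 0.48, limma FDR 0.017). It did not pass without CON replicate 2 (FDR 0.057), CON replicate 3 (0.054) or CDCA replicate 1 (0.054), nor with the mitochondrial mRNAs left out (0.069) or the most abundant transcript alone (0.063).

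Of 8 tested nucleotide kinases, 5 fell and none rose, and at an unadjusted limma p under 0.05 there were 5 lower and 2 higher. The median of the list was -0.33. It was -0.13 with the listed TPM rescaled to 1000000, -0.19 with no filter and -0.48 with the mitochondrial mRNAs left out of the totals. DTYMK, which carries dTMP on to dTDP, averaged 24.1 ± 1.5 TPM (SD, n = 3) in CON but 15.1 ± 1.2 TPM (SD, n = 3) in CDCA and fell (-0.65, FDR of 0.00050 by limma). NME1, a nucleoside diphosphate kinase, fell with a log2 fold change of -0.47 (limma FDR 0.011). DGUOK, the mitochondrial deoxyguanosine kinase, had the highest fold change of the list (0.31, limma FDR 0.054). It passed in 2 of 13 alternatives, without CON replicate 1 (FDR 0.018) and by the most abundant transcript alone (FDR 0.031). Its log2 fold change was 0.17 with the mitochondrial mRNAs left out of the totals (FDR 0.25) and 0.20 without CON replicate 2 (FDR 0.13).

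Of 6 tested folate enzymes that serve thymidylate synthesis, 2 fell, beside 23.9% of all tested genes, and 3 rose, beside 29.3%, and the median of -0.14 turned to 0.51 when the listed TPM were rescaled to 1000000 and to 0.061 with no filter on low values, and was -0.03 without CDCA replicate 2, -0.29 with the mitochondrial mRNAs left out of the totals and -0.24 by the most abundant transcripts. MTHFD1, the cytosolic folate enzyme, fell from 37.9 ± 1.5 to 16.8 ± 0.49 TPM (log2 fold change -1.13, limma FDR 1.1e-05) and was called. MTHFD2, the mitochondrial counterpart of MTHFD1, rose from 11.6 ± 1.0 to 23.2 ± 1.2 TPM (log2 fold change 0.94, limma FDR 0.00011).

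Of 8 tested genes of nucleotide breakdown and clean-up, 4 fell and 1 rose, with a median of -0.32. That median was -0.095 after the rescaling to 1000000, -0.059 with no filter and -0.47 with the mitochondrial mRNAs left out of the totals. NUDT1, which clears oxidised purine dNTPs, was called lower, at 26.6 ± 2.5 TPM (SD, n = 3) in CON but 10.4 ± 0.88 TPM (SD, n = 3) in CDCA (-1.28, FDR of 6.3e-05 by limma). CDA, which deaminates cytidine and deoxycytidine, rose and came just short of a call, at 78.0 ± 2.6 TPM (SD, n = 3) in CON but 152 ± 4.1 TPM (SD, n = 3) in CDCA (0.96, FDR of 1.0e-05 by limma). Among 4 tested genes of nucleoside transport and base salvage, 3 fell, and SLC29A1, the equilibrative carrier through which thymidine enters, was called (16.8 ± 2.5 to 6.42 ± 0.71 TPM, log2 fold change -1.26, limma FDR 0.00020).

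Of 5 tested electron donors of ribonucleotide reductase, 3 rose and 1 fell. Their median of 0.48 was 0.062 after the rescaling to 1000000, 0.080 with no filter and 0.32 by the most abundant transcripts. TXNRD1, cytosolic thioredoxin reductase, was called higher, at 28.8 ± 1.5 TPM (SD, n = 3) in CON but 61.2 ± 2.4 TPM (SD, n = 3) in CDCA (1.06, FDR of 1.9e-05 by limma), yet not with totals that leave out the mitochondrial mRNAs (0.91). TXN, thioredoxin itself, rose with a log2 fold change of 0.48 (limma FDR 0.015), which did not pass with those totals (FDR 0.061) or by the most abundant transcript alone (0.32, FDR 0.13). TXNRD2, the mitochondrial reductase, fell (-0.51, limma FDR 0.0096).

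Since RRM2B is a p53 target, other p53 targets were set beside it. Of 11 tested, 5 rose and 3 fell, beside 29.3% and 23.9% of all tested genes, with 4 called higher and 2 lower, beside 3.51% and 3.90%. Of these, 4 rises and 2 falls passed in all 13 alternatives, as did 4 of the calls higher and 1 of the calls lower. On the log2(TPM + 1) scale the largest rise was that of SESN2 (log2 fold change 2.94, limma FDR 2.8e-06) and the largest fall that of PHLDA3 (-1.34, limma FDR 0.0089). MDM2, the p53 ubiquitin ligase, fell from 9.03 ± 2.1 to 5.78 ± 0.51 TPM (log2 fold change -0.55, limma FDR 0.023), which did not pass without CDCA replicate 2 (FDR 0.061), without CDCA replicate 3 (0.068) or with no filter (0.058). CDKN1A, the p21 gene, was listed at means of 0.440 TPM in CON and 0.303 TPM in CDCA and was not tested.

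**Figure D5:**
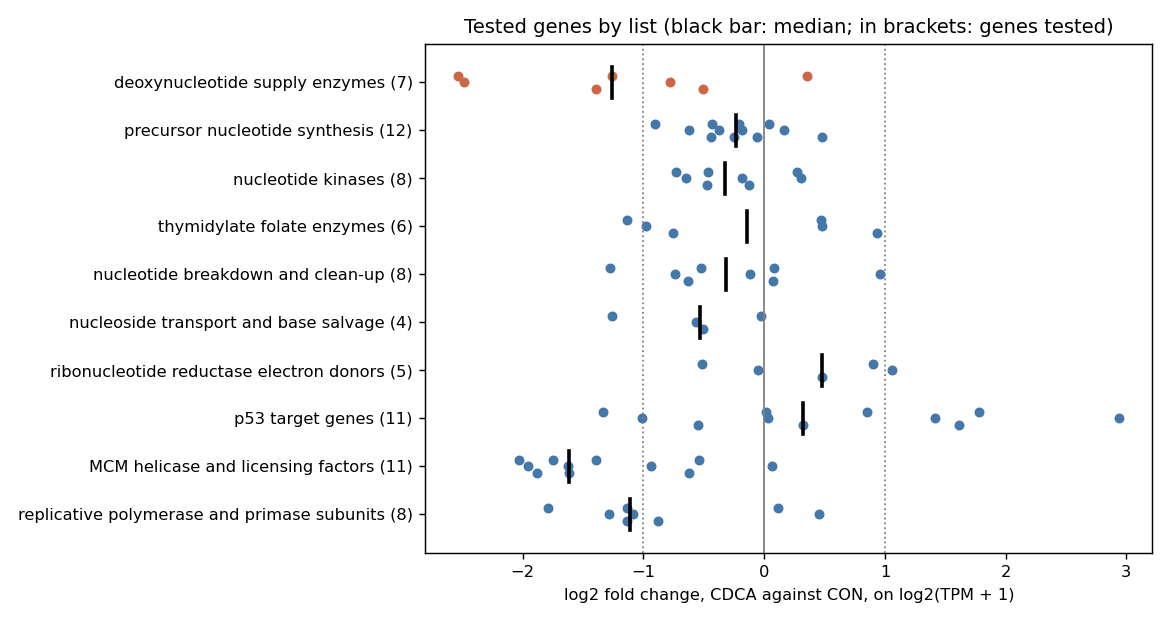
Log2 fold change on log2(TPM + 1) of CDCA against CON (horizontal axis) for each tested gene of the deoxynucleotide supply enzymes (orange) and of 9 related lists (blue), with the list's median as a black bar and dotted lines at the limits for a call. In the main comparison the deoxynucleotide supply enzymes, with a median of -1.26, sit between the replicative polymerases (-1.11) and the MCM and licensing factors (-1.62). This order does not hold with no filter, and the other settings are not compared here. The medians of the other lists lie nearer 0.

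Genes of the replication machinery were set beside the deoxynucleotide supply enzymes. Of 11 tested MCM helicase and licensing factors, 7 were called lower (63.6%) with a median of -1.62, and of 8 tested replicative polymerase and primase subunits, 5 were called lower (62.5%) with a median of -1.11, beside 57.1% and -1.26 for the 7 tested deoxynucleotide supply enzymes. With no filter the medians were -0.78 (helicase and licensing factors), -0.88 (polymerases and primase) and -1.02 (the 8 matched supply enzymes). This order was other than that of the main comparison, and differences between these lists were not tested. On the log2(TPM + 1) scale MCM3, a helicase subunit, had the largest fall of the first list (-2.03, limma FDR 2.8e-06), and POLE, the catalytic subunit of polymerase epsilon, that of the second (-1.79, limma FDR 2.6e-05). By the ratio of CDCA to CON mean TPM, MCM5, named here after its values were seen, was lower than MCM3 (0.205 beside 0.216). ORC3, an origin recognition subunit, and POLD4, a small subunit of polymerase delta, had the highest values, at 0.066 (limma FDR 0.57; -0.064 with the mitochondrial mRNAs left out of the totals) and 0.45 (limma FDR 0.017). POLD4 did not pass without CDCA replicate 2 (FDR 0.053) or CDCA replicate 3 (0.055), nor with the mitochondrial mRNAs left out of the totals (0.064).

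The genes whose profile lay nearest to that of RRM2 were sought by the root mean square distance of log2(TPM + 1), centred on each gene's mean, over the 6 libraries. The nearest was another member, TK1 (0.10 on the log2 scale). It was followed by the mitochondrially encoded CYTB (0.11) and COX2 (0.11), by PCLAF (0.12), a PCNA-binding factor, and by mitochondrially encoded COX3 (0.14). PCLAF averaged 140 ± 14 TPM (SD, n = 3) in CON but 26.8 ± 3.1 TPM (SD, n = 3) in CDCA. With 2 groups of 3 libraries, such a distance mostly reflects the size of the difference between the groups.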

How the data were processed

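RNA of 6 libraries (3 CON, 3 CDCA; groups and replicate numbers from the sample titles) was measured by RNA-seq. The deposited table, made by the authors with RSEM, holds TPM for 63041 transcripts. The processing notes name Bowtie 0.12.2 and the mouse build mm10, whereas the gene IDs are Ensembl pig IDs, so no coordinates are given. A gene's TPM is the sum over its listed transcripts. Symbols came from the deposited names, then from a table of gene names, then from NCBI gene numbers in the descriptions (19865 IDs named).

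CDCA and CON were compared with limma 3.58.1 under R 4.3.3 (lmFit, and eBayes with the trend option) on log2(TPM + 1), keeping the 8708 genes that averaged 1 TPM or more, with Benjamini-Hochberg adjustment. On this scale the change of low genes is understated. The authors used edgeR, which needs counts. The steps were tested on simulated data. Ratios within a library were compared by exact two-sided permutation tests (SciPy 1.17.1). The table gives no read counts, so no counting interval is given. No library pair held identical values.

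The members, the related lists and the tests were chosen with earlier results of these data known. Named genes were the members, the largest rise and fall of each list, DTYMK, NME1, TXN, TXNRD1, CDKN1A and MDM2, and the 5 genes with profiles nearest to RRM2. Alternatives were a pseudocount of 0.1 TPM, no filter, 3 other scalings, the most abundant transcript, the replicate number as a block, and each library left out. DCK, its ratio to TK1 and promoter sequences were not analysed here, and some genes that this rule names are not reported here.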

Additional observations from a re-analysis of the deposited data

How the results depend on the processing

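For each of the 7 tested members, 13 alternatives were run, and the 4 ratios of genes had 9 each. For a ratio only a change of direction could count, as its smallest permutation p of 0.1 is above 0.05. With the replicate block even the direction of a ratio could not change. Of 179 values recomputed for the members, the ratios of genes and the counts of calls, 177 kept their direction and their side of the threshold or, for a count, stayed within 1.5 times its value. Within that tolerance, the members called lower went from 4 to 5 by the most abundant transcript, and the genes of the other nucleotide lists called lower from 3 to 4 with a pseudocount of 0.1 TPM and with the mitochondrial mRNAs left out of the totals. The exceptions were DUT, called at a log2 fold change of -1.01 when its most abundant transcript replaced the gene sum, and the count called higher over the other nucleotide lists, which went from 1 to 0 when the mitochondrial mRNAs were left out of the totals. ORC3 turned from 0.066 to -0.064 with those totals. Of 117 recomputed list medians, 34 moved by over 1 SD of the replicates. Over all tested genes, 340 were called lower and 306 higher, against 462 and 221 with the mitochondrial mRNAs left out of the totals, 505 and 509 with a pseudocount of 0.1 TPM, and 481 and 523 with the listed TPM rescaled to 1000000.

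Libraries with the same replicate number did not deviate together (correlations of -0.035, -0.092 and -0.051), so no pairing by number was seen in these values. Whether the numbers pair the samples is not given in the sources used here. In this balanced design a replicate block cannot change a log2 fold change, so RRM2 stayed at -2.48, and only the FDR could move (limma FDR 0.00017). With the block, all genes called numbered 343 lower and 309 higher, and no call of a member changed. For the ratios, 3 pairs allow no p under 0.25. RRM2B and SAMHD1 lay near or under the filter of 1 TPM, and the table gives no read counts from which their counting error could be had.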
